A study of Homo sapiens with 8 samples.

Results

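Tensins are adaptor proteins of integrin adhesions, and 3 of their genes, TNS1, TNS3 and TNS4, were followed here across 8 RNA-sequencing libraries of SET-2 cells. The 3 genes were taken by symbol from the 25435 symbols in the deposited table of expected counts, and all 3 were among the 14898 genes with enough counts to be tested. The set was chosen by the count values of TNS4 in these libraries, which an earlier look at the data had found about 2-fold lower with guides against ZRSR2 in each experiment. Its fall with those guides is therefore given as a description without a test, and the tests below concern other contrasts or the other tensins. The fourth tensin gene, TNS2, stands in the table under its older symbol TENC1, is no member of the group, and is given for comparison.

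SET-2 is an established human line with an activating JAK2 mutation. It derives from essential thrombocythemia that had turned into a megakaryoblastic leukemia. All libraries came from this single line. Cells in each group had received PLKO5 GFP virus with a guide RNA: 4 libraries came from cells with a guide against the splicing factor gene ZRSR2, labelled ZRSR2 KO, and 4 from cells with a non-targeting guide, labelled ZRSR2 wildtype. Each genotype had 2 guides, each used in experiment 1 and in experiment 2. A further ZRSR2 guide named in the design was not analysed here. Per the labels' protocols, RNA was taken from the first biological replicate 20 days after the guides were delivered, and from the second after 25 days. That these replicates are experiments 1 and 2 is an assumption. Experiment, day and batch cannot be told apart. Within a genotype, replicate 1 is guide 1 and replicate 2 is guide 2 in experiment 1. Replicate 3 is guide 1 and replicate 4 is guide 2 in experiment 2.

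Integrins hold cells to matrix, and their short cytoplasmic tails gather a protein complex, the focal adhesion, that connects them to actin. Tensins bind the integrin beta tail through a phosphotyrosine-binding domain and bind tyrosine-phosphorylated partners through an SH2 domain. TNS1, TNS2 and TNS3 also carry an actin-binding region at the other end of the protein. TNS4, also called CTEN, lacks that region. In epithelial cells, growth factor signalling is known to exchange TNS3 for TNS4 at integrins.

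The total per library ran from 31106042 to 71521173 expected counts, with the highest in non-targeting replicate 3. Levels are in CPM, a gene's share of its library expressed per 1e+06 counts, after scaling by TMM, a factor that evens out differences in composition. Levels of different genes are not compared, since CPM is not divided by transcript length. In the targeted gene, ZRSR2, the ZRSR2 guide libraries had 29.4, 22.9, 28.3 and 18.7 CPM in replicates 1 to 4, and the non-targeting libraries 37.9, 39.2, 39.7 and 41.1 CPM, without overlap, as in 0.376% of tested genes. For ZRSR2 edgeR fitted −0.67 on the log2 scale (SE 0.15), which did not pass the threshold (adjusted p 1.0, or 0.275 once the experiment is a block). DESeq2 did call it with the block, at an adjusted p of 0.000538, and within experiment 2, at 0.0255, as did edgeR within experiment 2 without a filter on low counts, at 7.9e-05. Cutting by a guide need not lower a transcript, so this only checks the labels. Megakaryoblast markers fitted the label, with 7 of 8 tested and a summed level of 2660 to 3510 CPM, and GP1BB at 0 in every library. Epithelial markers, looked at because TNS4 is best known from epithelia, summed to 46.7 to 52.3 CPM in experiment 1 and 39.8 to 55.3 CPM in experiment 2, with 4 of 7 tested and KRT5 and KRT14 at 0. By genotype the ranges were 41.7 to 55.3 CPM with ZRSR2 guides and 39.8 to 52.3 CPM in controls. The sums hide opposite moves of single markers. Between experiments 1 epithelial marker was called higher and 1 lower, or 50.0% of those tested beside 58.2% of all tested genes. KRT18 was at 10.7 to 14.9 CPM in experiment 1 and 3.26 to 6.12 CPM in experiment 2. EPCAM ran from 3.59 to 21.1 CPM over the 8 libraries.

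**Figure D1:**
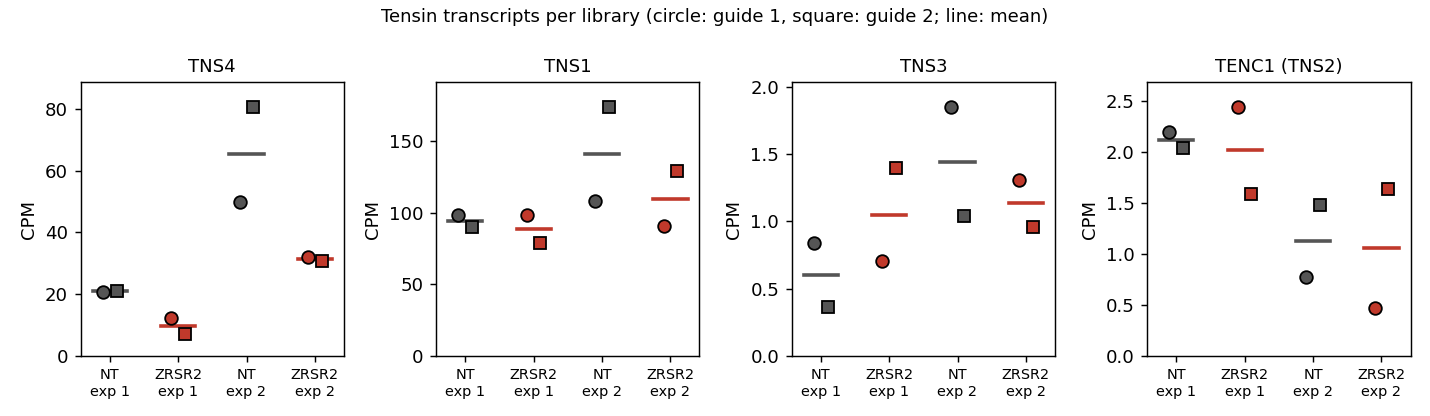
Level in CPM (vertical axes, from 0) of each tensin gene in the 8 libraries, by genotype (NT, non-targeting) and experiment; circles are guide 1, squares guide 2, and lines the mean of 2 libraries. TNS4 lies at 7.06 to 21.0 CPM in experiment 1 and 30.7 to 80.6 CPM in experiment 2, and in each experiment both ZRSR2 guide libraries lie below both controls.

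TNS4, on chromosome 17, was low with ZRSR2 guides and high in experiment 2. In experiment 1 it was at 12.2 CPM with ZRSR2 guide 1 and 7.06 CPM with guide 2, against 20.8 and 21.0 CPM with the non-targeting guides. In experiment 2 it was at 32.1 and 30.7 CPM with the ZRSR2 guides, against 50.0 and 80.6 CPM in the controls. Each ZRSR2 guide library thus lay below both controls of its own experiment, while the genotypes overlapped when the experiments were pooled. These levels rested on 333 to 3510 counts per library, far above the floor of 3 counts, which was worth 0.0428 to 0.0971 CPM. Such floors cover counting error only. In bulk RNA, fewer cells with a transcript and less of it per cell cannot be told apart.

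Set against the mean of the controls of its experiment, TNS4 stood at 58.4% with guide 1 and 33.8% with guide 2 in experiment 1. In experiment 2 the values were 49.1% and 47.1%. The means over the guides were 46.1% of control in experiment 1 and 48.1% in experiment 2. A similar fall in each experiment was part of how the gene was chosen, and nothing is read from it. The control level was 20.9 ± 0.144 CPM in the first and 65.3 ± 21.6 CPM in the second (SD, n = 2 each).

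On the fitted log2 scale, TNS4 changed by −1.13 (SE 0.26) in experiment 1 and by −1.05 (SE 0.24) in experiment 2 with the ZRSR2 guides. The difference of these effects was 0.07 (SE 0.35). Over all 8 libraries the change was −1.07 with an SE of 0.60 with genotype alone and −1.09 with an SE of 0.16 with the experiment as a block. Non-targeting replicate 4, the library with the most TNS4, weighed most: without it the value over all libraries was −0.56 and that within experiment 2 was −0.65. Within experiment 1 the value was −1.56 without ZRSR2 guide replicate 1 and −0.77 without replicate 2. These values chose the gene and are a description.

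The pattern is shared by other genes. Both ZRSR2 guide libraries lay below both controls in each experiment in 486 of the 14898 tested genes, or 3.26%, and above them in 367, or 2.46%. The first count includes TNS4 and is the background for it. A fitted fall of at least 2-fold in each experiment was met by 4 genes, or 0.0268%, namely TNS4, SLC6A8, PNCK and LOC253044. TNS4 lay just inside that limit. Just outside it were KLC3, at −0.95 and −1.0 in experiments 1 and 2, PPP1R3C, at −0.95 and −1.1, and ANGPTL4, at −0.85 and −1.0. NTN5, at −1.1 and −0.86, and PFKFB4, at −0.94 and −0.82, were also near it. The mean levels of LOC253044, KLC3, PPP1R3C and NTN5 were low, at 0.733, 0.501, 0.797 and 0.55 CPM. These genes were named after their values were seen.

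**Figure D2:**
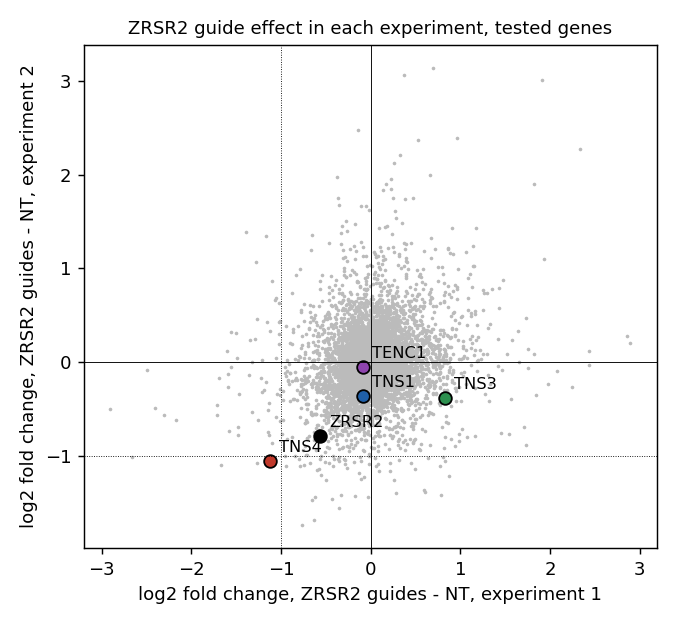
Fitted log2 fold change of the ZRSR2 guides against non-targeting in experiment 1 (horizontal) and experiment 2 (vertical) for 14898 genes (grey points), with the tensins and ZRSR2 marked; dotted lines stand at −1. TNS4 lies at −1.13 and −1.05, while TNS1, TENC1 and TNS3 lie at −0.36, −0.05 and −0.38 on the vertical axis.

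TNS1, on chromosome 2, encodes the large founding member of the family, which binds actin as well as integrins. Its levels in experiment 1 were 98.4 and 79.0 CPM with ZRSR2 guides 1 and 2 and 98.2 and 89.8 CPM in the controls. In experiment 2 they were 91.1 and 129 CPM with the ZRSR2 guides and 108 and 174 CPM in the controls. The genotypes overlapped in each experiment. Within experiment 2, both guide 2 libraries lay above both guide 1 libraries, while in experiment 1 both lay below them. How many of all tested genes do so was not counted, and nothing is read from it.

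For TNS1 the ZRSR2 guides gave a log2 fold change of −0.24 (SE 0.23) over all libraries, with an edgeR adjusted p of 1.0. The means were 99.4 ± 21.3 CPM with the ZRSR2 guides and 117 ± 38.4 CPM in the controls (SD, n = 4 each). The exact permutation test, two-sided and over all 70 arrangements, gave a p of 0.571, or 0.799 adjusted over the 7 such tests made. Its arrangements ignored the pairing by experiment, so the spread between experiments enters this p. Within experiments the changes were −0.08 (SE 0.22) and −0.36 (SE 0.22), neither past the threshold. Without non-targeting replicate 4 the values over all libraries and within experiment 2 were 0.02 and 0.05.

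TNS3, on chromosome 7, was scarce, with 12 to 130 counts per library. It was at 0.702 and 1.40 CPM with ZRSR2 guides 1 and 2 in experiment 1, against 0.841 and 0.366 CPM in the controls. In experiment 2 the ZRSR2 guide libraries had 1.31 and 0.961 CPM and the controls 1.85 and 1.04 CPM. The genotypes overlapped in each experiment, and their order was not the same: the higher mean was with the ZRSR2 guides in experiment 1 and with the controls in experiment 2.

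The log2 fold change of TNS3 with the ZRSR2 guides was 0.07 (SE 0.46) over all libraries, with an edgeR adjusted p of 1.0. The exact permutation test, which again ignored the pairing by experiment, gave a p of 0.857, adjusted to 0.886. Within experiments the changes were 0.83 (SE 0.50) and −0.38 (SE 0.43), and the difference of −1.21 (SE 0.66) had an edgeR adjusted p of 1.0. With the experiment as a block the change was 0.13 (SE 0.35), again not past the threshold.

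TENC1, the other tensin with an actin-binding region, ran from 0.473 to 2.44 CPM on 21 to 87 counts. Its log2 fold change with the ZRSR2 guides was −0.07 (SE 0.50), with an edgeR adjusted p of 1.0. Its lowest library was ZRSR2 guide 1 of experiment 2 at 0.473 CPM, and the next lowest was the non-targeting guide 1 library of the same experiment at 0.77 CPM. In the GENCODE 29 annotation the gene overlaps SPRYD3 on the opposite strand, so its counts are uncertain where strand was not used. No gene overlaps TNS3 or TNS4 in that annotation. TNS1 overlaps MIR6809, at 0.0143 CPM or below here, and an antisense transcript.

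In this contrast, edgeR called 0.0% of all tested genes with genotype alone and again with the experiment as a block. Unadjusted p-values under 0.05 were found for 89 and 690 genes. With genotype alone DESeq2 called 4 genes, or 0.0268%, namely TGM1, EXOSC5, MT1E and SLC4A1, named after their values were seen. With the block it called 31, or 0.208%. No call is given for TNS4 in this contrast, since its values here chose it. Within experiments edgeR called 0.0%, where 305 genes of experiment 1 and 645 of experiment 2 had an unadjusted p under 0.05. DESeq2 there called 5, or 0.0336%, and 13, or 0.0873%. The difference of the effects between experiments was called in 0.0% by edgeR and in 0 genes by DESeq2. For that difference 248 genes had an edgeR unadjusted p under 0.05 and 181 a DESeq2 one. Over all libraries DESeq2 called neither TNS1 nor TNS3, whose adjusted p-values were 1.0 with genotype alone and 0.999 with the block.

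**Figure D3:**
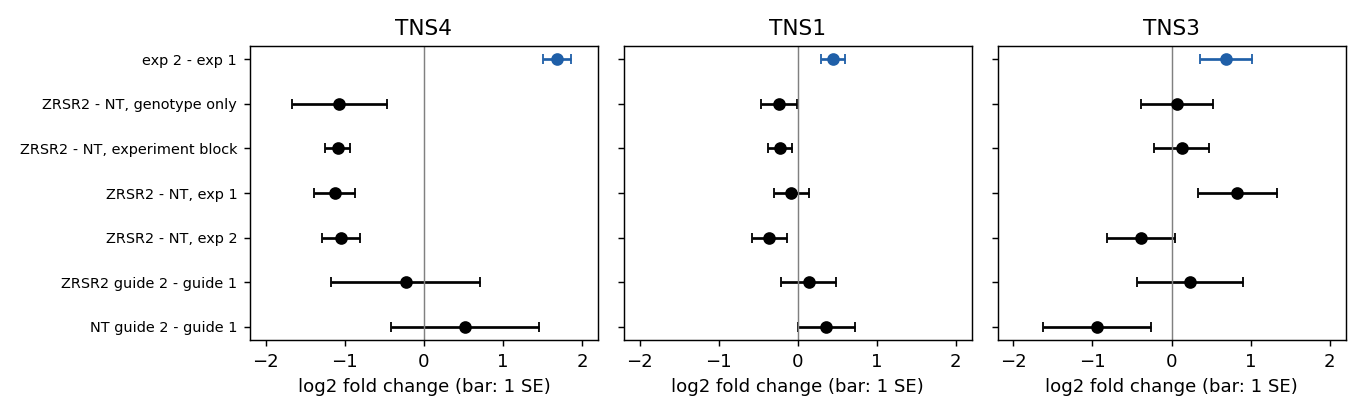
Fitted log2 fold change (point) and 1 SE (bar) of TNS4, TNS1 and TNS3 in each comparison; experiment 2 against experiment 1 is in blue, and NT is non-targeting. TNS4 is near −1 in each of the 4 fits of the ZRSR2 guides, at −1.13 to −1.05, where TNS1 ranges from −0.36 to −0.08 and TNS3 from −0.38 to 0.83.

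Experiment 2 was compared with experiment 1 over both genotypes, a contrast that played no part in choosing the genes. TNS4 rose from 15.2 ± 6.83 to 48.4 ± 23.2 CPM (SD, n = 4). On the log2 scale this was 1.68 (SE 0.18), with an edgeR adjusted p of 2.19e-05. All 4 libraries of experiment 2 lay above all 4 of experiment 1. The exact two-sided permutation p was 0.0286, the smallest that 4 against 4 allows, and 0.2 adjusted over the 7 tests. The rise was 3.13-fold in the controls and 3.27-fold with the ZRSR2 guides.

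The mean TNS1 level of experiment 1 was 91.3 ± 9.12 CPM, and that of experiment 2 was 126 ± 35.9 CPM (SD, n = 4). It rose by 0.45 on the log2 scale (SE 0.15), with an edgeR adjusted p of 0.0267. The experiments overlapped, since ZRSR2 guide 1 of experiment 2, at 91.1 CPM, lay below 2 libraries of experiment 1. The exact permutation p was 0.0857, and the call rested on single libraries. It was lost without non-targeting replicate 4, at 0.25 and an adjusted p of 0.113, and without ZRSR2 guide replicate 4, at 0.31 and 0.127. It was also lost without ZRSR2 guide replicate 2, at 0.37 and 0.104, and without non-targeting replicate 2, at 0.42 and 0.0753.

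For TNS3 the log2 fold change was 0.69 (SE 0.33), from 0.827 ± 0.430 to 1.29 ± 0.403 CPM (SD, n = 4), with an edgeR adjusted p of 0.0906. The experiments overlapped. It passed the threshold without non-targeting replicate 1, at 1.05 and an adjusted p of 0.0399, and without ZRSR2 guide replicate 2, at 0.99 and 0.0405. TENC1 went the other way, from 2.07 ± 0.360 to 1.09 ± 0.560 CPM. It fell by 0.94 on the log2 scale (SE 0.35), with an edgeR adjusted p of 0.0375. That call was lost when single libraries were left out, in 5 of 8 cases, namely without ZRSR2 guide replicate 1 or 3, at −0.77 and −0.62, and without non-targeting replicate 1, 2 or 3, at −0.91, −0.96 and −0.72.

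These calls stand on a wide background. Of all tested genes, 58.2% passed the threshold between experiments, 29.6% higher and 28.6% lower, and 28.0% had all 4 libraries of experiment 2 above all 4 of experiment 1. A tensin past the threshold is therefore ordinary here. The lymphoid marker list moved with the experiment as well, at 10.4 to 11.7 CPM summed in experiment 1 and 32.5 to 51.3 CPM in experiment 2. CD79A made up nearly all of it, at up to 51.1 CPM, while CD3E and CD3D were at 0.183 CPM or below and MS4A1 was at 0. The fibroblast list summed to 4.05 to 5.76 CPM in experiment 1 and 6.54 to 8.22 CPM in experiment 2. That sum hides opposite moves of its markers. Of 5 tested, 2 were called higher and 1 lower, or 60.0%. On the log2 scale 3 of the 5 were below 0, with a median of −0.364. By genotype the lymphoid sums were 10.4 to 34.1 CPM with ZRSR2 guides and 11.6 to 51.3 CPM in controls. The part of these cell markers in the tensin values was not tested.

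Guides of the same genotype were compared to see how far single guides differ. TNS4 was lower with ZRSR2 guide 2 than with guide 1 in experiment 1, at 7.06 against 12.2 CPM, and close to it in experiment 2, at 30.7 against 32.1 CPM. The log2 fold change of guide 2 against guide 1 was −0.23 (SE 0.94), with an edgeR adjusted p of 1.0. With the experiment as a block it was −0.39 (SE 0.19), again with an adjusted p of 1.0. ZRSR2 itself was lower with guide 2 in each experiment, by 0.47 on the log2 scale (SE 0.16), which did not pass edgeR's threshold.

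The non-targeting guides differed in TNS4 by 0.52 (SE 0.94), with an edgeR adjusted p of 1.0. With the experiment as a block the difference was 0.36 (SE 0.18), with an adjusted p of 0.93. It came from experiment 2, where the controls were at 50.0 and 80.6 CPM, while those of experiment 1 were 20.8 and 21.0 CPM. TNS1 differed between the non-targeting guides by 0.36 (SE 0.36) and TNS3 by −0.94 (SE 0.68), with edgeR adjusted p-values of 1.0. Between the ZRSR2 guides TNS1 differed by 0.14 (SE 0.35) and TNS3 by 0.23 (SE 0.67). edgeR called 0.0% of tested genes in either guide comparison, with 27 at an unadjusted p under 0.05 between the ZRSR2 guides and 13 between the non-targeting guides. With the experiment as a block these were 376 and 482, and DESeq2 with the block called 2 genes, or 0.0134%, namely KMT2D and KCNQ1OT1, and 0.

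The genes that lie next to TNS4 were examined to see whether they moved with it. In the RefSeq table of GRCh38.p14 the nearest protein-coding genes are TOP2A, a DNA topoisomerase of dividing cells, and IGFBP4, which binds insulin-like growth factors, on one side. On the other are CCR7, a chemokine receptor, and SMARCE1, a subunit of chromatin remodelling complexes. IGFBP4 was at 641 and 452 CPM with ZRSR2 guides 1 and 2 in experiment 1, against 650 and 694 CPM in the controls. In experiment 2 it was at 781 and 758 CPM with the ZRSR2 guides and at 953 and 1280 CPM in the controls. Like TNS4, it was lower than both controls in every ZRSR2 guide library and higher in experiment 2.

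The IGFBP4 change with the ZRSR2 guides was −0.44 (SE 0.25), with an edgeR adjusted p of 1.0, and −0.42 (SE 0.11) with the block, where the adjusted p was 0.625. Between experiments it rose by 0.61 (SE 0.12), with an edgeR adjusted p of 0.00102. TOP2A rose by 0.40 between experiments (SE 0.11, edgeR adjusted p 0.00797), CCR7 fell by 0.98 (SE 0.15, edgeR adjusted p 0.00032), and SMARCE1 had −0.13 (SE 0.07) and did not pass. With the ZRSR2 guides these 3 had log2 changes of −0.14, −0.28 and −0.02. The 4 neighbours thus did not share one direction between experiments.

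**Figure D4:**
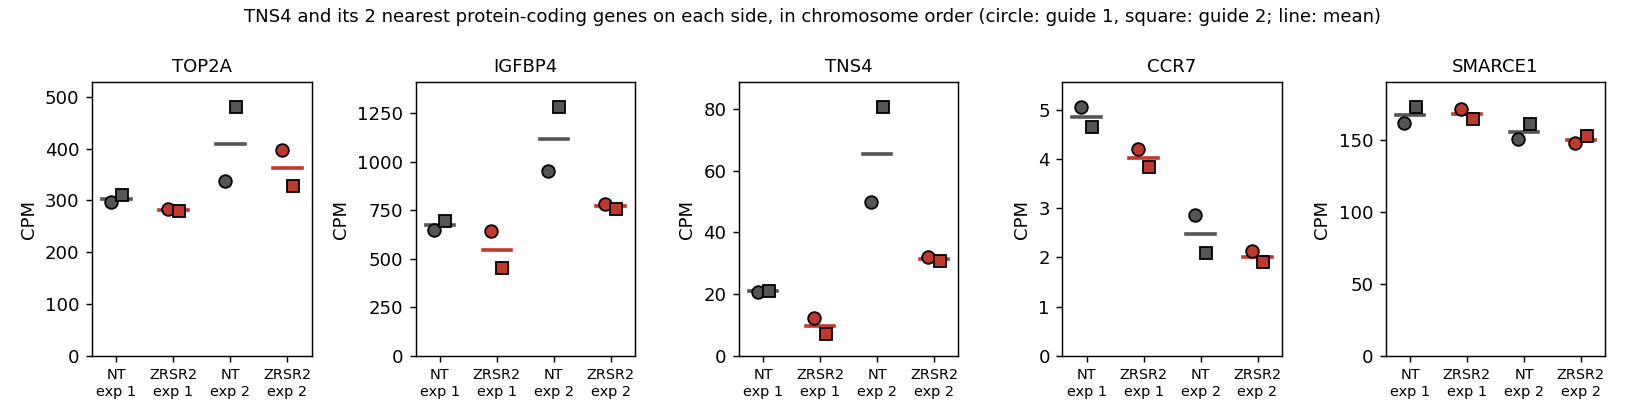
Level in CPM (vertical axes, from 0) of TNS4 and its 2 nearest protein-coding genes on each side, by genotype (NT, non-targeting) and experiment; circles are guide 1, squares guide 2, lines means of 2 libraries. In experiment 2, IGFBP4 and TNS4 are both highest in the non-targeting guide 2 library, at 1280 and 80.6 CPM, and CCR7 is lower in experiment 2 than in experiment 1.

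Other tensin genes also lie near genes of insulin-like growth factor binding proteins. Between experiments the few tested ones had the sign of their tensin. Over all tested genes the signs were near evenly split, with 7412 of 14898 below 0, so nothing is read from this. IGFBP4 and IGFBP5 rose, as did TNS4 and TNS1. IGFBP6, next to TNS2, had −0.23 and did not pass the threshold, beside −0.94 for TENC1. With the ZRSR2 guides the sign of IGFBP5 was opposite to that of TNS1, which had −0.24, and neither passed edgeR's threshold. IGFBP5, next to TNS1 but for the untested gene TNP1, rose by 1.31 between experiments (SE 0.12, edgeR adjusted p 1.08e-05) and had 0.48 (SE 0.47) with the ZRSR2 guides. The edgeR adjusted p of that second value was 1.0, and 0.459 with the block, where DESeq2 gave 0.0109. On the other side of TNS1, RUFY4 rose by 2.23 (SE 0.18, edgeR adjusted p 4e-06). IGFBP1 and IGFBP3, next to TNS3, were too low to be tested. HUS1, a DNA damage checkpoint gene beyond TNS3, fell by 0.62 (SE 0.11, edgeR adjusted p 0.000835). Of 11 tested neighbours of the 4 tensin genes, 5 rose, 3 fell and 3 did not pass between experiments, or 72.7% called beside 58.2% of all tested genes.

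Likeness to the tensins was measured as Pearson's r of log2 CPM over the 8 libraries, among the other genes with a mean of at least 5 CPM, 11013 for TNS1 and TNS4 and 11014 for TNS3. The 8 points fall into 2 experiments, so a high r mostly follows the experiment, and it is given as a description. Nearest to TNS4 were SPAG5, a mitotic spindle protein, at 0.981, SEMA3F, a secreted semaphorin, at 0.980, and LINC00341 at 0.978. SEMA3F, for example, had 10.1 and 6.42 CPM with the ZRSR2 guides and 10.9 and 11.3 CPM in the controls of experiment 1, and 14.8 and 14.3 against 16.6 and 20.0 CPM in experiment 2.

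After the mean of each experiment was taken off, nearest to TNS4 was SYAP1 at 0.985. Next were MAFF, a small MAF transcription factor, at 0.976, and TPST2, a tyrosylprotein sulfotransferase, at 0.975. On that scale the spread of TNS4 holds the difference between genotypes that chose it. Likeness to TNS4 there follows that choice in part, so it is a description and nothing is read from it. MAFF was at 24.1 and 19.2 CPM with the ZRSR2 guides in experiment 1, against 29.3 and 27.9 CPM, and at 21.3 and 23.3 against 25.7 and 30.1 CPM in experiment 2. Nearest to TNS1 were SLC25A37, a mitochondrial iron importer, at 0.978, CHD3, a chromatin remodeller, at 0.972, and AMPD3 at 0.967. For TNS3 the values were lower, with C19orf40 at 0.943, HKR1 at 0.917 and CA13 at 0.911.

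Among the tensins, TNS1 and TNS4 had an r of 0.796 over the 8 libraries, and 0.628 after the experiment means were taken off. TNS3 had 0.217 with TNS4 and 0.099 with TNS1, and −0.493 and −0.397 once the experiment means were removed. TNS1 and TNS4 were both highest in non-targeting guide 2 of experiment 2, at 174 and 80.6 CPM, and TNS3 was highest in non-targeting guide 1 of that experiment, at 1.85 CPM.

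Genes of the adhesion machinery around the tensins were taken from lists. With the ZRSR2 guides no member of any list passed edgeR's threshold, with genotype alone or with the experiment as a block. The list genes named for this contrast are given from the fit with genotype alone. Their SEs therefore include the spread between experiments. Of 23 tested scaffolds and adaptors of focal adhesions, 18 had a value below 0, with a median of −0.040, where all tested genes had a median of −0.003 and 7645 of 14898 below 0. Within each experiment 14 of the 23 were below 0. The smallest unadjusted p-values were those of TGFB1I1, also called HIC-5, at −0.21 (SE 0.11), and of LIMS2, a partner of integrin-linked kinase, at −0.61 (SE 0.40). Of 11 kinases and phosphatases, 9 were below 0 with a median of −0.055, and 8 and 9 within experiments 1 and 2. The smallest unadjusted p-values were those of SRC at −0.10 (SE 0.09) and PTPN1 at −0.20 (SE 0.22).

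Of 14 tested tensin binding partners, 10 were below 0 with the ZRSR2 guides, with a median of −0.029, and 8 and 9 within experiments 1 and 2. ITGB5, an integrin beta subunit, had −0.30 (SE 0.31), and STARD8 had −0.10 (SE 0.11). All 5 tested genes of the EGF receptor family and its ligands were below 0 over all libraries, with a median of −0.138, and 3 of the 5 within each experiment. Among them were ERBB2 at −0.14 (SE 0.26) and EGF at −0.08 (SE 0.21). EGFR, the receptor best known for raising TNS4 in epithelial cells, had 0 counts in every library, and the receptor ERBB4 and the ligands TGFA, AREG and BTC were too low to be tested.

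Between experiments the same lists moved in mixed directions, beside the 58.2% of all genes called. Among the 23 scaffolds and adaptors, 4 rose and 13 fell, with a median of −0.253 against 0.003 over all genes. PXN, the scaffold paxillin, rose by 0.83 (SE 0.07, edgeR adjusted p 6.99e-06), and TLN2, a talin that activates integrins, by 0.63 (SE 0.10). LIMS2 rose by 0.79 (SE 0.28), a call lost in 5 of 8 cases when a library was left out. ZYX, the stress-fibre protein zyxin, fell by 1.13 (SE 0.09, edgeR adjusted p 2.98e-06), from 330 to 377 CPM in experiment 1 to 147 to 186 CPM in experiment 2. NEDD9 and BCAR1, adaptors of the CAS family, fell by 1.09 (SE 0.29) and 0.91 (SE 0.10).

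Of the 11 kinases and phosphatases, 3 rose and 3 fell between experiments. PTPN1 rose by 0.59 (SE 0.07), PEAK1, a pseudokinase that binds TNS3, by 0.32 (SE 0.09) and PTK2, the focal adhesion kinase, by 0.23 (SE 0.07). CSK, which restrains SRC family kinases, fell by 0.49 (SE 0.08), FYN by 0.30 (SE 0.10) and LYN by 0.18 (SE 0.06). The calls of FYN and LYN were each lost in 5 fits that left out a library, that of PTK2 in 3 and that of PEAK1 in 1. The largest of these changes was well under that of TNS4.

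Among the 14 tensin binding partners, 3 rose and 7 fell, with a median of −0.202. The receptor tyrosine kinase AXL rose by 0.81 (SE 0.12), as did the integrin subunit ITGB1 by 0.41 (SE 0.08). DOCK5, an exchange factor for Rac, fell by 1.60 (SE 0.23, edgeR adjusted p 0.000156), from 36.8 to 46.1 CPM in experiment 1 to 8.61 to 22.0 CPM in experiment 2. MET, a receptor that TNS4 binds, fell by 1.36 (SE 0.23) from low levels of 2.13 to 2.65 CPM. MET and DOCK5 therefore went opposite to TNS4.

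Of the 5 tested EGF receptor genes and ligands, 3 rose and 1 fell between experiments. EREG, the ligand epiregulin, rose by 0.98 (SE 0.22), ERBB2 by 0.71 (SE 0.09), and ERBB3 by 0.69 (SE 0.26, edgeR adjusted p 0.0409). The ERBB3 call was lost in 7 of 8 fits that left out a library, all but the one without ZRSR2 guide replicate 4, with adjusted p-values up to 0.187. HBEGF, another ligand of the receptor, fell by 2.64 (SE 0.23, edgeR adjusted p 6.32e-06), from 2.08 to 2.82 CPM to 0.285 to 0.469 CPM. Of the 4 tested IGFBP genes 3 rose, namely IGFBP4, IGFBP5 and IGFBP2, the last by 0.32 (SE 0.10), a call lost in 2 such fits.

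**Figure D5:**
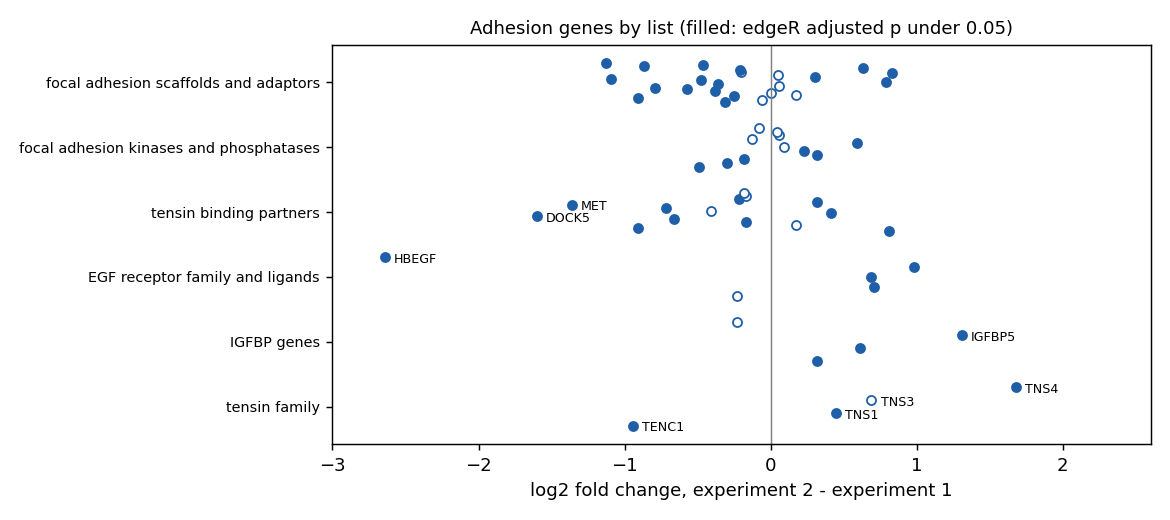
Fitted log2 fold change of experiment 2 against experiment 1 (horizontal) for each tested gene of 6 lists (rows); filled points passed edgeR's adjusted p threshold of 0.05, and genes beyond 1.2 in size and all tensins are named. TNS4 has the highest value shown, 1.68, and HBEGF the lowest, −2.64.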

How the data were processed

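RNA was sequenced from 8 SET-2 libraries. For each gene symbol the authors deposited expected counts from RSEM, per the submitters' processing notes and the values. The submitters' processing notes name cutadapt 1.11, RSEM 1.2.30 and hg19. Aligner, annotation and strand setting are not given in the sources used here. The counts were whole, so that rounding changed 0 values, and 0 columns belonged to other samples. Columns were matched to samples by the library number in the titles.

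Genes were filtered with filterByExpr on genotype, which kept 14898 genes and at least 99.966% of the counts of each library, and scaled by TMM. The test was the quasi-likelihood F test of edgeR 4.0.16 in R 4.3.3, and p-values were adjusted by Benjamini-Hochberg across the whole tested table, with a threshold of 0.05. Genotype was the sole term for the ZRSR2 guides, 4 cells of genotype by experiment served the effects within and between experiments, and 4 guides the guide comparisons. SEs were derived from the F statistic. Log2 CPM for likeness used a prior count of 2. Alternatives were DESeq2 1.42.0, its size factors, 2 other count filters, the experiment as a block, and leaving out each library. The fits were tested on simulated data. These lacked the experiment differences of the real libraries, so they do not show how the ZRSR2 guide fit with genotype alone performs here. Exact permutation tests used scipy 1.17.1, and those of the ZRSR2 guides did not keep libraries within their experiment.

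Deviations from genotype means correlated at 0.678 to 0.846 in the 8 pairs of a ZRSR2 guide and a control library of the same experiment, and at −0.816 to −0.709 in the 8 pairs from different experiments. The titles give only an experiment number, and that it marks one collection is an assumption. The number was taken as pairing the samples. Chi-square per degree of freedom between any pair of libraries was at least 2.99, so none were counted as one. Beyond the experiment number the labels do not say which libraries came from separate cultures, so p-values measure the spread between these samples, which may be technical.

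Members and lists were chosen with earlier results of these data known. Named genes were the tensins, ZRSR2, the 2 nearest protein-coding genes on each side of a tensin, the 3 most alike genes, and of each list up to 3 per direction past the threshold, or the 2 of smallest p where none passed. For comparisons within experiments and between guides, list members are not named, since none passed. The authors' build differs from the reference used here, so coordinates are not given.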

Additional observations from a re-analysis of the deposited data

Results flagged for a closer look

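The levels of TNS1, TNS3 and TNS4 and the total counts were looked at in 16 groups of 4 libraries for a library apart from the rest. Chance marks about 1 in 20 such groups, and 1 was found. Non-targeting replicate 3 had 71521173 counts, where the other controls had 31106042 to 36544665. For the tensins no library stood apart in this way, and neither TNS1 nor TNS3 passed edgeR's threshold for a difference of the ZRSR2 guide effect between experiments.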

How the results depend on the processing

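Of 312 alternative values for members and call counts (24 results), 279 kept direction and threshold side, or rough size for counts and untested TNS4. Without a filter on low counts, TNS3 between experiments had 0.70 with an edgeR adjusted p of 0.0162. Genes called by edgeR without a filter were 40 within experiment 1 and 116 within experiment 2, in place of 0. DESeq2 called 4 genes for the ZRSR2 guides and 31 with the replicate block, 5 within experiment 1, 13 within experiment 2 and, with the block, 2 between the ZRSR2 guides. Among the 5 were TGM1, IL1R1, IFIT2 and IGFBP5. With the replicate block, TNS4, TNS1 and TNS3 had −1.09, −0.22 and 0.13 with the ZRSR2 guides; between the ZRSR2 guides they had −0.39, 0.08 and 0.34, and between the non-targeting guides 0.36, 0.30 and −0.95. The pairing changed no call of TNS1 or TNS3, and TNS4 was not tested with the ZRSR2 guides. The cause of these shifts was not tested.

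Leaving out each library in turn gave these ranges of log2 change. Between experiments they were 1.49 to 1.90 for TNS4, 0.25 to 0.60 for TNS1 and 0.44 to 1.05 for TNS3, with 7178 to 9193 genes called. With the ZRSR2 guides they were −1.37 to −0.56 for TNS4, −0.39 to 0.02 for TNS1 and −0.20 to 0.54 for TNS3. TNS3 turned to −0.07, −0.02, −0.01 and −0.20 without ZRSR2 guide replicate 2 or 3 or non-targeting replicate 1 or 2. Within experiment 1 the ranges were −1.56 to −0.77 for TNS4, −0.25 to 0.07 for TNS1, positive without ZRSR2 guide replicate 2, 0.23 to 1.54 for TNS3, lowest without ZRSR2 guide replicate 2 and highest without non-targeting replicate 1, and 0 to 2 genes called, IGFBP5 and LIF without ZRSR2 guide replicate 1. Within experiment 2 they were −1.36 to −0.65 for TNS4, −0.66 to 0.05 for TNS1, −0.68 to 0.12 for TNS3, positive without non-targeting replicate 3, and 0 to 154 genes called, 154 without that same library. Between the ZRSR2 guides they were −1.65 to 0.63 for TNS4, −0.26 to 0.45 for TNS1 and −0.14 to 0.75 for TNS3. There TNS4 turned to 0.48 and 0.63 without ZRSR2 guide replicate 2 or 3, TNS1 to −0.26 without replicate 4, and TNS3 to −0.14 and −0.06 without replicate 1 or 2. Between the non-targeting guides they were −0.75 to 1.29 for TNS4 and −0.19 to 0.77 for TNS1, both negative without replicate 4, and −1.88 to −0.25 for TNS3, lowest without replicate 4 and highest without replicate 3. Values of list genes with the ZRSR2 guides, none called, also moved. Nearest 0 without non-targeting replicate 4 were LIMS2 (−0.81 to −0.21), PTPN1 (−0.32 to −0.02) and IGFBP4 (−0.57 to −0.21); without non-targeting replicate 3, SRC (−0.12 to −0.04) and ERBB2 (−0.27 to 0.03); without ZRSR2 guide replicate 3, STARD8 (−0.16 to −0.03) and ITGB5 (−0.52 to −0.15); and without non-targeting replicate 1, EGF (−0.18 to 0.00). IGFBP5 ran from 0.25 without ZRSR2 guide replicate 3 or non-targeting replicate 2 to 0.76 without non-targeting replicate 3.

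Where a library was left out of a pair, the remaining one was assumed to vary like the other groups. Lost calls of list genes between experiments concerned LIMS2 (without ZRSR2 guide replicate 2, 3 or 4 or non-targeting replicate 2 or 4), FYN (ZRSR2 1, 3; non-targeting 1, 2, 3), LYN (ZRSR2 1, 2, 4; non-targeting 1, 2), PTK2 (ZRSR2 2; non-targeting 1, 2), PEAK1 (non-targeting 2) and IGFBP2 (ZRSR2 1; non-targeting 2). ERBB3 and LYN lost their calls without a filter, at adjusted p-values of 0.0543 and 0.0568 or, for ERBB3 with DESeq2, 0.149. What set the error of TNS3 was not tested.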
